A study of Mus musculus with 12 samples.

Results

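The immunoglobulin gene segments measured here are the constant and variable pieces of the antibody heavy, kappa and lambda chains. They were taken as every array probe whose identifier starts with IGH, IGK or IGL or holds the tag _Ig_, with 1 further probe for Igkc found by its NCBI gene number. This rule gave 301 of the 46628 probes on the array, of which 142 belong to the heavy chain, 147 to kappa and 12 to lambda. The heavy set held 136 variable (V) segments, 5 constant regions and a probe named IGHD-3P. The kappa set held 145 V segments and 2 probes for the constant region. The lambda set held 8 V segments, 3 constant regions and 1 joining segment.

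Each B cell joins 1 V segment of its heavy chain to a constant region after rearranging its DNA, and does the same for either a kappa or a lambda light chain. When such a cell becomes a plasma cell it secretes the product, and immunoglobulin RNA comes to make up a large part of its messenger RNA. Plasma cells of the gut wall mostly secrete IgA, which the epithelium carries into the lumen through the polymeric immunoglobulin receptor, Pigr. In mouse antibodies kappa light chains are far more common than lambda ones.

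Total RNA from normal and tumour tissue of Apcmin mice, which carry a mutated Apc allele and develop intestinal tumours, was hybridised to Illumina bead arrays. There were 12 arrays in 6 groups of 2, and all 6 groups carried the Apcmin background. Wild type here means that no Notch allele was changed. Notch-inactivated animals were Vil-Cre;Mib1f/f, in which a Cre recombinase under the villin promoter, active in intestinal epithelium, deletes Mib1, whose ubiquitin ligase activity makes Notch ligands able to signal. Notch-activated animals were Vil-Cre;RosaN1+/RN1, in which the same Cre switches on an active Notch1 from the Rosa locus. Both alleles act in the epithelium, whereas immunoglobulins are made by B lineage cells. The labels do not say how old the animals were, which stretch of gut was taken or whether the arrays of a group come from separate animals, so p-values reflect only how far these samples spread, and that spread may be technical. Each group value is from n = 2 arrays.

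Values are log2 signals as deposited, normalized so that all 12 arrays share 1 distribution. A background limit of 5.79 was set as the 95th percentile of 51 probes for sequences foreign to the mouse, pooled over the 12 arrays. Taken per array, that percentile was 6.05 to 6.19 on the normal arrays and 5.68 to 5.74 on the tumour arrays. A probe was tested if it lay above the limit of 5.79 on at least 2 arrays. Folds given as "at least" also take the limit of 5.79, and over normal tissue they would be smaller under the limits per array. Of the 301 immunoglobulin probes 146 were tested (68 heavy, 73 kappa and 5 lambda), 155 were not, and 128 lay above the limit on no array. Levels are compared for each probe between arrays and never between probes. V segments of a family are closely alike in sequence, probe sequences were not used here, and a signal can include RNA of related segments. Because the tissue was taken in bulk, fewer cells of a type and less RNA per cell cannot be told apart.

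Far more immunoglobulin probes carried signal in tumours than in normal tissue. Between 22 and 41 of the 301 probes (7.31% to 13.6%) were above the limit on the normal arrays, and between 93 and 131 (30.9% to 43.5%) on the tumour arrays. Over all probes on the array about 36.0% were above the limit on every array. Only 13 immunoglobulin probes were above it on all 6 normal arrays, against 75 on all 6 tumour arrays. T cell receptor segments, of which the array has 52 probes named in the same way, showed no such difference, with 1 to 5 above the limit on a normal array and 1 on each tumour array.

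**Figure D1:**
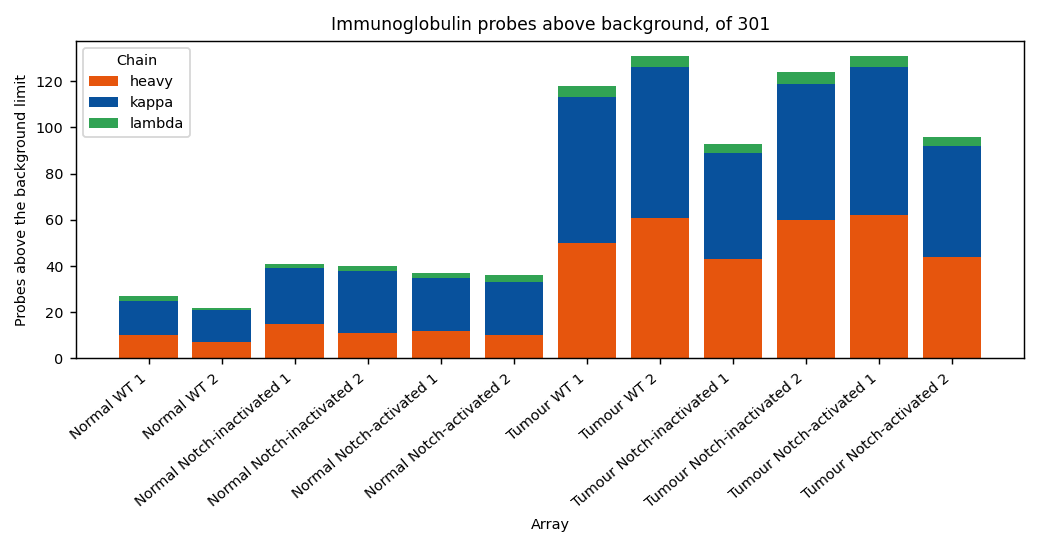
Number of immunoglobulin probes above the background limit on each of the 12 arrays (vertical axis, probes of 301), stacked by chain. The 6 normal arrays hold 22 to 41 such probes and the 6 tumour arrays 93 to 131, with heavy and kappa probes making up nearly all of them.

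The kappa constant region is present in every kappa antibody whatever its V segment. Among the tested probes of the member rule it had the largest fitted rise in wild type animals and in the average over genotypes. The rise of probes at background in normal tissue is not fully measured, so this order is of fitted values only. With Notch inactivated IGKV1-117 rose by slightly more, and with Notch activated it lay between the 2 constant region probes. In normal tissue the Igkc probe read 8.63 and 6.96 in wild type, 9.27 and 9.10 in Notch-inactivated, and 9.62 and 9.76 in Notch-activated animals. In tumours it read 13.47 and 13.91 in wild type, 12.53 and 13.67 in Notch-inactivated, and 13.49 and 12.35 in Notch-activated animals. Every tumour array thus lay above every normal array. The tumour minus normal difference was 5.89 on the log2 scale in wild type (SE 0.54 in each comparison, limma, adjusted p = 1.95e-05), 3.91 with Notch inactivated (adjusted p = 0.000254) and 3.23 with Notch activated (adjusted p = 0.00295).

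A second probe for the same constant region, named IGKC, moved with the first, with differences of 6.05, 3.77 and 3.40. It read 8.04, 6.56, 8.95, 8.73, 9.03 and 8.99 on the normal arrays, in the order wild type, Notch-inactivated, Notch-activated, and 13.15, 13.56, 12.05, 13.17, 13.12 and 11.69 on the tumour arrays. The array order was the same for both probes at the low end, with replicate 2 of normal wild type tissue lowest and replicate 2 of the Notch-activated tumours lowest among tumours. The correlation of the 2 probes was 0.993 over the 6 tumour arrays and 0.987 over the 6 normal arrays, given as a description because they measure the same RNA on the same arrays.

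All 3 lambda constant regions were higher in tumours as well. IGLC1 read 6.75 to 7.29 on the normal arrays, and 10.06 and 9.45 in wild type, 9.14 and 9.30 in Notch-inactivated and 10.19 and 9.34 in Notch-activated tumours. Its tumour minus normal differences were 2.92 (wild type), 2.15 (Notch inactivated) and 2.83 (Notch activated), each with an SE of 0.27 and with adjusted p from limma of 2.19e-05, 0.000148 and 0.000178. IGLC2 read 5.57 to 6.19 in normal tissue and 6.75 to 8.50 in tumours. It passed the test in wild type (2.06, adjusted p = 0.00167) and Notch-activated animals (1.78, adjusted p = 0.00993), while the Notch-inactivated difference was 0.86 (adjusted p = 0.0883). Without replicate 2 of normal tissue or replicate 1 of the tumours the Notch-activated call was lost (adjusted p = 0.0629 and 0.0702). IGLC3 was at background on all 6 normal arrays and read 5.84 to 6.71 in tumours. It passed the test in wild type (at least 1.44-fold, adjusted p = 0.017) and Notch-activated animals (at least 1.56-fold, adjusted p = 0.00911). The wild type call was lost without replicate 2 of either tissue (0.0825 and 0.139), and the Notch-activated one without replicate 2 of normal tissue (0.0606) or replicate 1 of the tumours (0.0645).

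Among the heavy chain constant regions IGHA rose in all 3 genotypes and IGHG2C in wild type and Notch-inactivated animals. IGHG1 was called higher in wild type, but it entered the test only through the wild type tumours. IGHM did not pass the test in any genotype, and IGHD was not tested. IGHA, the constant region of IgA, had an SE of 0.36 in each comparison. It read 6.23 and 6.06 in wild type, 6.28 and 6.32 in Notch-inactivated and 6.38 and 6.45 in Notch-activated normal tissue. In tumours it read 8.03 and 8.58, 7.10 and 8.14, and 8.12 and 7.11 in the same order. The groups of arrays did not overlap, and the differences were 2.17 (adjusted p = 0.000745), 1.32 (adjusted p = 0.0116) and 1.20 (adjusted p = 0.0349) by limma. The last of these was not called without either Notch-activated normal array (adjusted p = 0.120 without replicate 1 and 0.122 without replicate 2) or without replicate 1 of the Notch-activated tumours (0.222). The Notch-inactivated difference was not called without replicate 2 of those tumours (0.0986).

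IGHG2C, the constant region of IgG2c, was at background on 5 of the 6 normal arrays, where it read 5.32 to 5.90. Its tumour readings were 7.98 and 7.50 in wild type, 6.72 and 8.21 in Notch-inactivated and 8.09 and 5.79 in Notch-activated animals. The last array stayed at the normal level, so that the tumours of that genotype were split. IGHG2C passed the test in wild type (2.13, SE 0.65, adjusted p = 0.0189) and in Notch-inactivated animals (at least 3.19-fold, adjusted p = 0.0263), and not with Notch activated (adjusted p = 0.144). These calls were lost with a trended, robust prior (adjusted p = 0.0507 and 0.0640). The wild type call was lost without replicate 2 of normal tissue (0.102) or replicate 1 of the tumours (0.0942), and the Notch-inactivated one without either normal array (0.0794 and 0.0836) or replicate 2 of the tumours (0.191). Without replicate 2 of the Notch-activated tumours, that difference was 2.52 (adjusted p = 0.0155).

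IGHG1, the constant region of IgG1, was above background only on the wild type tumour arrays, at 5.96 and 6.98. The other 10 arrays lay between 5.04 and 5.76. IGHG1 thus entered the test only through the group where it was high, so its wild type call supports no direction. The wild type tumours were at least 1.60-fold higher than normal wild type tissue (adjusted p = 0.00626, limma), or 0.0526 without replicate 2 of normal tissue. A probe for Ighg1 found by gene number, which the member rule does not include, followed it closely, with 6.83 and 8.43 in wild type tumours and 5.67 to 6.53 in the other tumours.

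IGHM, the constant region of IgM, read 5.45 to 6.20 in normal tissue and 5.41 to 6.13 in tumours, and its tumour minus normal differences of 0.12, -0.23 and 0.15 did not pass the test. IGHD, the constant region of IgD, was at background on every array, between 5.45 and 5.78. A probe for Ighm found by gene number, outside the member rule, read 5.97 to 6.92 in normal tissue and 6.05 to 6.72 in tumours and did not pass the test either.

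**Figure D2:**
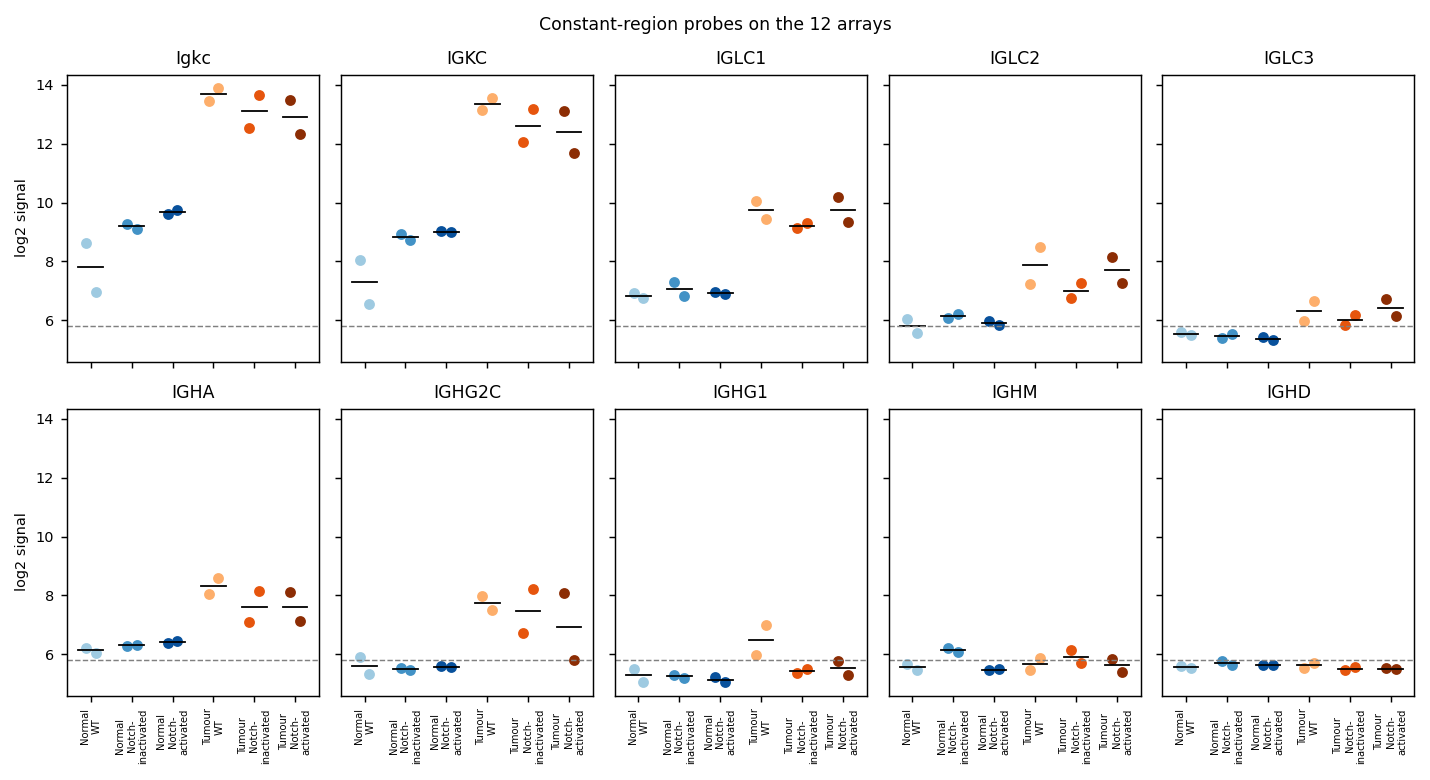
Log2 signal of the 10 constant-region probes on the 12 arrays, 2 points per group with a bar at their mean and a dashed line at the background limit of 5.79. Igkc, IGKC, IGLC1 and IGHA show all 6 tumour arrays above all 6 normal arrays, while IGHM and IGHD stay near the limit.

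Both IGKV1 segments described here, and IGKV6-15 and IGKV4-61, rose in all 3 genotypes. IGKV1-117 read 5.46 and 5.26, 5.96 and 5.47, and 6.05 and 5.85 in normal tissue of the wild type, the Notch-inactivated and the Notch-activated animals. In tumours of the same genotypes it read 10.32 and 10.55, 8.87 and 10.57, and 10.28 and 8.39. It was at background in normal wild type tissue and at least 25.0-fold higher in wild type tumours (SE 0.60, adjusted p = 8.7e-05, limma). The differences with Notch inactivated and activated were 4.01 (adjusted p = 0.000392) and 3.38 (adjusted p = 0.00372).

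IGKV1-110 of the same family read 5.76 to 6.39 in normal tissue and 10.29, 10.69, 8.76, 10.69, 10.24 and 8.32 on the tumour arrays, the same 2 arrays being low as for IGKV1-117. Its differences were 4.70, 3.64 and 2.93 in wild type, then Notch-inactivated, then Notch-activated animals (SE 0.63, adjusted p = 0.000198, 0.000966 and 0.00903). The last was not called without replicate 2 of normal tissue (0.0526) or replicate 1 of the tumours (0.0551). IGKV6-15 read 5.23 to 6.79 in normal tissue and 8.26 to 10.26 in tumours, and was at least 16.1-fold higher in wild type tumours (adjusted p = 3.89e-05). IGKV4-61 read 5.88 to 6.57 in normal tissue and 7.68 to 9.68 in tumours, with differences of 3.36, 1.73 and 2.13 (SE 0.46). Its Notch-inactivated call was lost without replicate 2 of the tumours (0.0848), and its Notch-activated call without replicate 2 of normal tissue (0.0711) or replicate 1 of the tumours (0.0521).

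The 5 heavy chain V segments with the highest mean signal all rose in wild type tumours. IGHV5S17 read 5.30 to 5.84 on the normal arrays, and 7.95 and 8.73 in wild type, 7.96 and 9.59 in Notch-inactivated and 8.46 and 7.35 in Notch-activated tumours. It was at least 5.85-fold higher in wild type tumours (adjusted p = 0.00086, limma) and at least 4.33-fold higher in Notch-activated ones (adjusted p = 0.0114), and the Notch-inactivated difference was 3.16 (SE 0.50, adjusted p = 0.000552). IGHV1S63, at background on all 6 normal arrays, read 6.71 to 8.73 in tumours and passed the test in all 3 genotypes. IGHV9S6 likewise passed in all 3, from 5.62 to 6.21 in normal tissue to 6.45 to 8.21 in tumours. The Notch-activated calls of these 3 segments were lost without either normal array or without replicate 1 of the tumours (adjusted p from 0.0563 to 0.153), and those of IGHV1S63 and IGHV9S6 also without replicate 2 (0.0793 and 0.0539). The Notch-inactivated call of IGHV9S6 was lost without replicate 2 of either tissue (0.114 and 0.134). IGHV1S13 passed in wild type and Notch-inactivated animals but not with Notch activated (1.28, adjusted p = 0.103), and IGHV8S9 passed in wild type (1.18, adjusted p = 0.0222) but in neither other genotype. Without replicate 2 of the wild type tumours neither segment was called in wild type (0.0591 and 0.178), and IGHV8S9 was not without either normal array. The Notch-inactivated call of IGHV1S13 (adjusted p = 0.0458) held in 8 of 20 alternatives, and was lost without replicate 2 of the tumours (0.359).

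Of the lambda V segments IGLV2 and IGLV3 were tested. IGLV2 was at background on all 6 normal arrays and read 7.63 and 8.15, 7.05 and 7.27, and 7.74 and 7.27 in the tumours. It was at least 4.27-fold higher in wild type, 2.58-fold in Notch-inactivated and 3.28-fold in Notch-activated tumours (adjusted p = 1.29e-05, 0.000185 and 0.000219). IGLV3 was above background in both wild type tumours (6.34 and 6.91) and in 2 other tumour arrays, and passed the test in wild type only (at least 1.78-fold, adjusted p = 0.000371). The probe named IGLV1 was at background everywhere, yet a probe for Iglv1 found by gene number, outside the member rule, read 6.05 to 8.16 in normal tissue and 11.4 to 12.4 in tumours. Its tumour minus normal difference was 5.47 in wild type (adjusted p = 6.7e-06). That both probes stand for the same segment rests on a gene number read from the probe identifier, and this reading is inferred.

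Over the 301 probes, tested or not, every tumour array lay above every normal array for 111 (36.9%), while 9.05% of all probes on the array did so. These were 54 of 142 heavy, 53 of 147 kappa and 4 of 12 lambda probes. Every tumour array lay below every normal array for 11 immunoglobulin probes (3.65%), against 10.4% of all probes. The median difference between the tumour and normal means was 0.19 over the 301 probes and -0.02 over all probes, and 67 of the 301 (22.3%) exceeded 1 on the log2 scale, against 2.59% of all probes. Of the T cell receptor probes, nearly all at background in both tissues, 1 of 52 lay higher on every tumour array and 6 lower. No difference of theirs exceeded 1, the highest being 0.21.

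Within the kappa locus the difference followed the class that RefSeq gives a segment. Of 92 V segments annotated as functional 62 were tested and 48 (52.2%) were higher on every tumour array, with a median difference of 0.51 over the 92. Of 47 annotated as pseudogenes 5 were tested and 1 (2.13%) was higher on every tumour array, with a median difference of -0.04. The pseudogenes that passed the background filter included IGKV8-31, which read 5.55 to 6.56 in normal tissue and 6.30 to 7.52 in tumours. Another was IGKV4-75, at 5.90 to 6.18 in normal tissue, within the range of the foreign probes there, and 5.61 to 5.73 in tumours. A further 6 kappa V segments had no RefSeq entry. IGKV13, a family of 17 probes of which 15 are pseudogenes, had 1 member higher on every tumour array. IGKV4, with 24 functional segments of 30, had 16. The heavy chain V names of the array matched no RefSeq entry, so the same split was not made there.

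**Figure D3:**
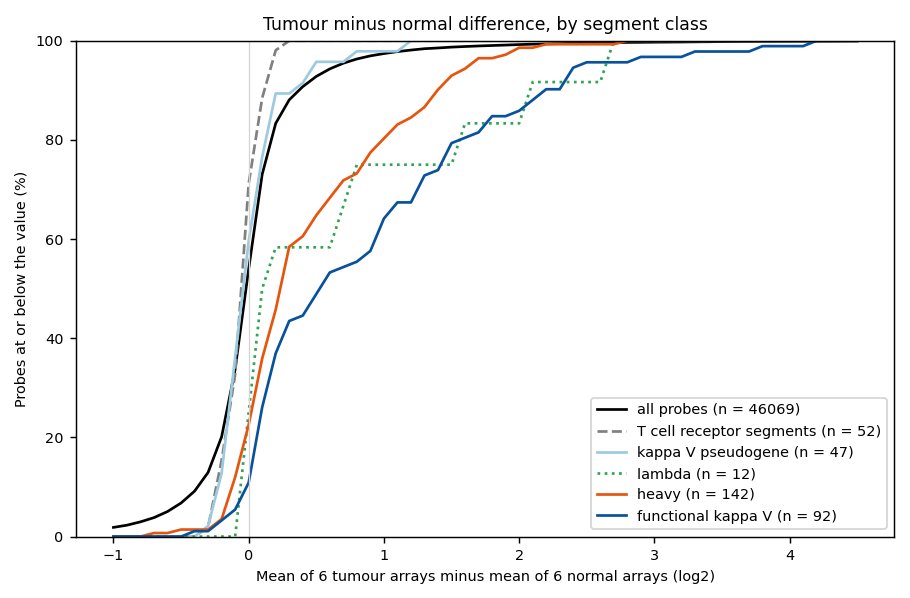
Cumulative share of probes (vertical axis, %) at or below each tumour minus normal difference (horizontal axis, log2, mean of 6 tumour arrays minus mean of 6 normal arrays), with no background filter. Functional kappa V segments (median 0.51) and heavy chain probes (0.22) lie to the right of all probes (-0.02). Kappa V pseudogenes (-0.04) and T cell receptor segments (-0.05), the latter nearly all at background in both tissues, do not.

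Functional kappa V segments along the whole locus took part. The second number in a kappa V name counts segments outward from the joining segments. For names numbered 1 to 50, 18 of 41 functional segments (43.9%) were higher on every tumour array, for 51 to 100, 19 of 33 (57.6%), and for 101 to 150, 11 of 18 (61.1%). Among heavy chain families 14 of 25 IGHV5 probes, 7 of 8 IGHV8 and 21 of 70 IGHV1 were higher on every tumour array, where 9.05% of all probes were. IGHV2 and IGHV3 each had 1 of 4, and IGHV6 and IGHV7 had 0 of 4. Many of the IGHV1 probes were at background on all arrays, and 30 of the 70 were tested.

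By the fitted test 108 immunoglobulin probes rose in wild type tumours and 6 fell. Across the array 24.9% of tested probes were called higher and 28.7% lower in that comparison. With Notch inactivated 79 were called higher and 6 lower (26.1% and 28.4% of all tested probes). With Notch activated 72 were called higher and 4 lower (13.1% and 14.1%). The averages over the 3 genotypes gave 124 higher and 8 lower (31.8% and 38.0%). Since 82 of the 146 tested probes were above background on no normal array, they could enter the test only through tumours, and the counts over tested probes describe them without supporting a direction. Without any filter 116, 73, 67 and 148 of the 301 probes were called higher in the 4 comparisons, against 12.3%, 13.1%, 6.4% and 19.7% of all probes. In the same order 9, 11, 9 and 25 were called lower, against 14.1%, 14.6%, 7.16% and 24.2%.

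The count for Notch-activated animals rested on few arrays. Leaving out replicate 1 of their normal tissue gave 32 called higher (9.26% of all probes), leaving out replicate 2 gave 21 (6.91%), and leaving out replicate 1 of their tumours gave 22 (8.3%). For Notch-inactivated animals, leaving out replicate 2 of the tumours gave 40 called higher (20.8%).

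In the average over genotypes 8 V segments were called lower in tumours. For 6 of them no tumour array was above background, so the size of the fall is not measured. IGHV1S50 had the largest fitted difference. It read 6.98 and 6.78 in wild type and 7.19 and 6.10 in Notch-inactivated normal tissue, and was at background in Notch-activated normal tissue (5.69 and 5.66) and in all tumours. It was lower in the average over genotypes (adjusted p = 0.00124, limma) and at least 2.12-fold lower in wild type tumours than in wild type normal tissue. It was also the only immunoglobulin probe called between normal tissues. There it was at least 2.12-fold lower with Notch activated than in wild type (adjusted p = 0.0197), a call that was lost without any 1 of the 4 wild type and Notch-activated normal arrays (adjusted p = 0.0635 to 0.112). The other 7 were IGHV1S130, IGKV12-e, IGKV3-3, IGKV4-75, IGHV1S136, IGHV1S3 and IGKV1-99, chosen here because of their direction, and their highest value on any array was 6.19.

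The V segments did not rise in the same proportion in every tumour. Replicate 2 of the wild type tumours gave the highest signal for 55 of the 135 tested heavy and kappa V segments, replicate 2 of the Notch-inactivated tumours for 33 and replicate 1 of the Notch-activated tumours for 28. Replicate 1 of the Notch-inactivated and replicate 2 of the Notch-activated tumours were each lowest for 49, and these same arrays were low for Igkc, IGKC and IGHA. The replicate gap of the tested V segments had a median of 0.44 to 0.47 in the 3 tumour groups and 0.12 to 0.13 in the 3 normal groups.

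Families differed in which tumour they were highest in. Of 15 tested IGHV5 segments 12 peaked in replicate 2 of the Notch-inactivated tumours, where their mean was 7.43, against 6.39 in replicate 1 of that group. Their mean was 6.31 and 6.999 in the wild type tumours and 6.56 and 6.17 in the Notch-activated tumours. IGHV5S4 had the widest replicate gap of any tested V segment. It read 8.41 there and 5.86 in the replicate, and 5.93, 6.77, 6.29 and 6.22 in the other tumours. IGHV8 instead peaked in replicate 1 of the Notch-activated tumours for 5 of 7 segments, with a mean of 7.04 against 5.91 to 6.57 in the other tumours. IGKV1 did so for 4 of 6. IGKV4 peaked in replicate 2 of the wild type tumours for 11 of 18. The largest gap between wild type tumours was that of IGKV5-39, at 5.99 and 7.83, and between Notch-activated tumours that of IGKV3-9, at 8.31 and 6.11.

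Over the 135 segments the tumour arrays of 1 group correlated at 0.832 to 0.909 and arrays of different groups at 0.696 to 0.874. These are descriptions across segments that share probes and arrays. The ranges overlap, and single segments can set much of a difference between genotypes with 2 arrays each.

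**Figure D4:**
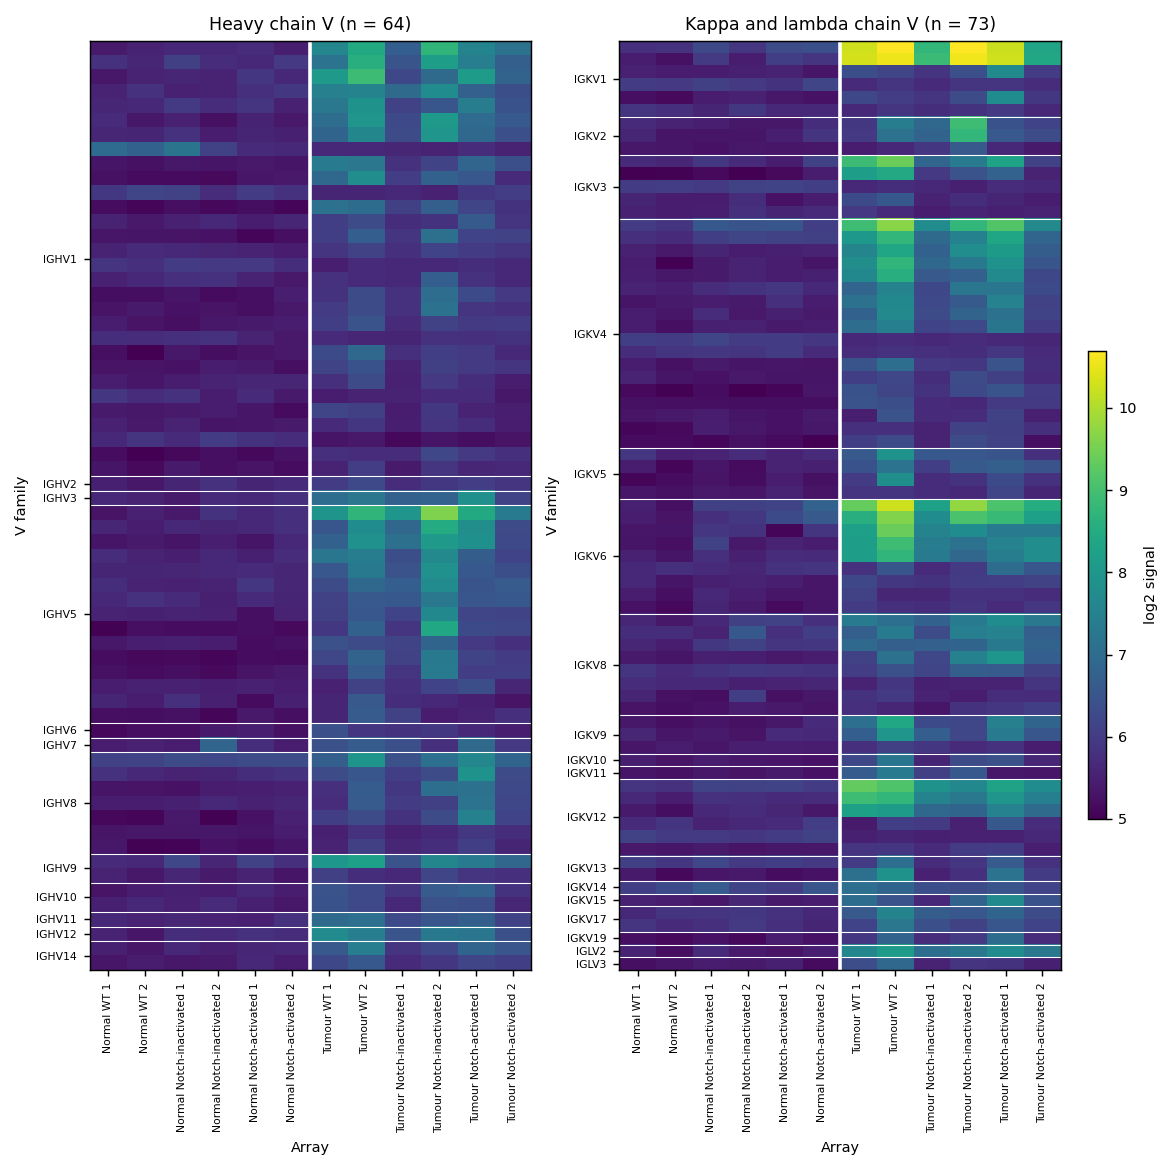
Log2 signal (colour) of the 64 heavy and 73 kappa and lambda V segment probes tested, in rows grouped by family, on the 12 arrays in columns. Most segments are dark on the 6 normal arrays, with exceptions such as IGHV1S50, and the tumour arrays differ from each other, with IGHV5 brightest in Notch-inactivated replicate 2.

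Between genotypes, no immunoglobulin probe was called higher or lower in Notch-inactivated than in wild type normal tissue by limma. In that comparison 2.46% of all tested probes were called higher and 2.29% lower. At an unadjusted p under 0.05 in limma there were 5 higher and 0 lower of 146, against 8.51% and 10.2% of all tested probes. Igkc read 1.39 higher there (adjusted p = 0.198) and 1.89 higher with Notch activated (adjusted p = 0.0593), and the wild type group was split between 8.63 and 6.96. Without replicate 1 of normal wild type tissue the Notch-activated difference was 2.73 (adjusted p = 0.0177). In that comparison 0 immunoglobulin probes were called higher and 1 lower, against 4.26% and 4.89% of all tested probes. At an unadjusted p under 0.05 there were 4 and 2, where all tested probes had 11% and 10.7%. The spread used is shared with the tumour arrays. A fit to the arrays of that comparison alone called 5 higher and 1 lower, against 3.75% and 4.37% of all tested probes.

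In tumours, immunoglobulin probes tended to be lower where Notch was inactivated than in wild type. There 0 were called higher and 6 lower, while 0.135% of all tested probes were called higher and 0.106% lower. The 6 were 27.3% of the 22 probes called lower across the array. Over the tumour arrays 97.1% of heavy and 95.8% of kappa probes correlated positively with Igkc, so counts of probes are not counts of independent observations. At an unadjusted p under 0.05 in limma, 3 were higher and 43 lower of 146, against 2.25% and 2.35% of all tested probes. A fit to the 4 arrays of that comparison alone called none of them, and no other probe on the array. Without replicate 2 of the Notch-inactivated tumours 1 was called, and without replicate 2 of the wild type tumours 3. Without replicate 1 of the Notch-inactivated tumours 4 were called higher and 3 lower, so the single direction rests on that array. Without either Notch-activated tumour array, which enters only the estimate of spread, 10 were called lower.

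The 6 probes, named here because they were called, had Notch-inactivated tumours below wild type tumours on every array. IGKV3-2 read 8.19 and 8.44 in wild type, 5.95 and 6.45 in Notch-inactivated and 6.79 and 5.54 in Notch-activated tumours. Its difference was -2.12 (SE 0.33, adjusted p = 0.0411, limma), a call that held in 7 of 20 alternatives. It was lost with the trended, robust prior (0.0965), the replicate block (0.0702) and without any 1 of the 10 arrays other than the Notch-activated tumours (0.0720 to 0.227). IGKV12-41 read 9.32 and 9.12 in wild type, 7.90 and 7.66 in Notch-inactivated and 8.27 and 7.76 in Notch-activated tumours, a difference of -1.44 (adjusted p = 0.0149). IGKV12-44 and IGKV12-46 of the same family behaved alike at -1.42 and -1.31, and related segments may share signal. IGHV1S30 fell from 7.34 and 7.27 in wild type to 5.80 and 6.18, a difference of -1.31. IGKV4-86 was at background in the Notch-inactivated tumours and at least 1.53-fold lower there.

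**Figure D5:**
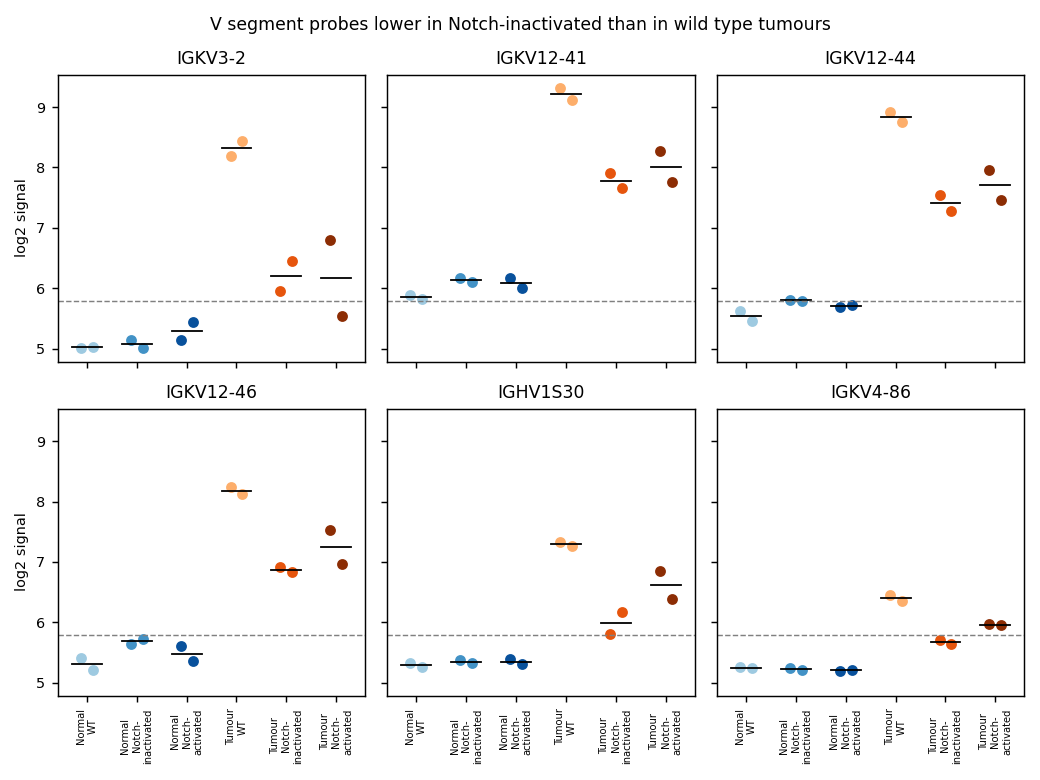
Log2 signal of the 6 V segment probes called lower in Notch-inactivated than in wild type tumours, on the 12 arrays, 2 points per group with a bar at their mean and a dashed line at the background limit of 5.79. Both wild type tumour arrays lie above all 4 other tumour arrays in each panel.

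With Notch activated, 0 immunoglobulin probes were called higher and 23 lower than in wild type tumours, against 12.5% and 11.4% of all tested probes. The 23 were 9 heavy, 13 kappa and 1 lambda probes, with differences from -2.15 to -0.45. The share of tested members called lower was 15.8%, near the 11.4% of all probes, and the share called higher was far below it. All 6 probes just named were among the 23, and both comparisons use the same wild type tumours, so that they are not independent. Outside those 6, IGKV3-9 fell from 8.90 and 9.41 in wild type to 8.31 and 6.11 (-1.95, adjusted p = 0.0289). That difference was -0.84 without replicate 2 of the Notch-activated tumours (0.106) and -3.05 without replicate 1, and without either wild type tumour the call was lost (0.0670 and 0.135). IGKV11-125 fell from 6.66 and 7.32 to background (at least 2.29-fold lower, adjusted p = 0.000424). IGHG1 and IGKV3-1, both among the 23, were above the limit only on the wild type tumour arrays. They could enter the test only through the group where they were high, so their calls support no direction. IGHG1 was at background with Notch activated and at least 1.60-fold lower (limma, adjusted p = 0.0401). That call held in 5 of 18 alternatives, and the difference was -0.43 without replicate 2 of the wild type tumours. With that array left out 1 probe was called higher and 13 lower, against 9.65% and 9.27% of all tested probes. When replicate 2 of the Notch-activated tumours was left out 5 were called higher and 9 lower, against 8.65% and 7.71%.

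Igkc itself was not called between tumour groups. It was 0.59 lower with Notch inactivated (adjusted p = 0.9999) and 0.77 lower with Notch activated (adjusted p = 0.370), in each case less than the gap of over 1 between that group's own arrays. IGKC and IGHA were not called either.

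The tumour minus normal change was also compared between genotypes. It was smaller than in wild type for 5 probes and larger for 0 with Notch inactivated, against 0.511% and 0.299% of all tested probes. With Notch activated it was smaller for 13 and larger for 0, against 6.19% and 7.53%. Without a filter 7 were smaller and 0 larger with Notch activated, against 2.57% and 3.12% of all probes. Igkc was among the 13, with a difference of -2.66 (SE 0.77, limma, adjusted p = 0.0471). Its normal level was higher and its tumour level lower with Notch activated, and neither part passed the test alone.

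Genes of plasma cells and of antibody transport gave a mixed picture beside the segments. Of 23 listed plasma cell genes 8 were named on the array and 5 tested. Jchain, which links IgA into dimers, stayed at background on every array (5.08 to 5.53), as did Tnfrsf13b and Eaf2. Sdc1, the plasma cell and epithelial surface protein syndecan 1, rose in wild type tumours by 0.52 (adjusted p = 0.00761) and in Notch-inactivated ones by 0.40 (adjusted p = 0.0269). With Notch activated Sdc1 was not called (-0.13), and its normal level there was 1.46 above wild type (limma, adjusted p = 0.00014). Txndc5 was lower in Notch-inactivated tumours (-0.48, adjusted p = 0.00509) and higher in Notch-activated ones (0.47, adjusted p = 0.0133). Pou2f1 rose in both (0.40 and 0.47). Xbp1, a transcription factor of secretory cells that the gut epithelium also makes, did not pass the test in any genotype. Of the plasma cell list, 1 of 5 tested genes rose and 0 fell in wild type tumours, 2 rose and 1 fell with Notch inactivated, and 2 rose and 0 fell with Notch activated. The plasma cell label could be checked only against these 8 genes and the immunoglobulin probes themselves.

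B cell genes were also few, with 4 of 5 on the array tested. Cd74, the invariant chain of antigen presenting cells, and Cd72, a B cell surface protein, rose in wild type and Notch-inactivated tumours. Spib, a factor of B cells and of some epithelial cells, fell in both. None of the 4 passed the test with Notch activated. Rag1, Igll1, Vpreb1 and Vpreb2, genes of V segment recombination and of the pre-B cell receptor, were at background on all arrays.

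Signals that carry or recruit IgA cells moved in both directions. Pigr fell by 1.75 in wild type (adjusted p = 5.42e-05) and by 1.56 in Notch-inactivated tumours (adjusted p = 0.000115), and Ccl28, a chemokine that draws IgA plasma cells, fell in all 3 genotypes. Tnfsf13, which encodes the plasma cell survival factor APRIL, fell in all 3 as well. Vcam1, an adhesion molecule, and Ccl21a, a chemokine of lymphoid tissue, rose in all 3, Vcam1 by at least 6.60-fold in wild type tumours. Of 7 tested genes of the list, 2 rose and 3 fell in wild type, 2 rose and 4 fell in Notch-inactivated and 3 rose and 2 fell in Notch-activated tumours.

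Markers of myeloid cells, endothelium and fibroblasts moved with the segments, while those of epithelium, T cells and mast cells did not. The 5 tested myeloid genes rose in all 3 genotypes, their mean level going from 5.57 to 6.26 on the normal arrays to 7.35 to 8.52 on the tumour arrays. All 3 endothelial genes rose too, from 5.43 to 5.66 up to 7.35 to 7.91, and 5 of 5 fibroblast genes rose in the average over genotypes. Smooth muscle Acta2 and both globins rose, the globins not with Notch activated. Of the epithelial markers Krt8 and Krt19 fell in the average. Neither was called with Notch activated (-0.05 for each), nor was Krt8 in wild type (-0.21). The mast cell gene Mcpt4 was higher in Notch-inactivated tumours and lower in Notch-activated tumours than in their normal tissue. Cd3e, the T cell gene tested, read 5.35 to 5.88 in normal tissue and 5.29 to 5.88 in tumours, and Cd8b1 was at background. The part of these cells in the immunoglobulin signal was not tested.

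Among 4810 other named genes, the 10 whose values were most like those of Igkc over the 12 arrays were Srgn, Trps1, Bcl2a1a, Lst1, Samsn1, Lama5, Gramd1a, Il1rl1, Cxcl1 and Vmp1, with correlations of 0.960 to 0.976. The arrays form 2 clusters by tissue that set most of this. Within the 6 tumour arrays the correlation was 0.988 for Trps1, 0.702 for Srgn and 0.214 for Vmp1. Within tumours the immunoglobulin probes followed Igkc more than other probes did, with a median correlation of 0.652 for 68 heavy, 0.621 for 71 kappa and 0.669 for 5 lambda probes, and -0.08 for 20593 other probes. All share the same 6 arrays, and no p is given for them.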

How the data were processed

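Biotin-labelled cRNA from 12 samples was hybridised to Illumina bead arrays, per the labels. The deposited table holds log2 values per probe, and the base of the logarithm is inferred from their range of signals. The authors' normalization is read from the values: after sorting, the 12 columns differ by at most 0.000543, as quantile normalization gives. Background correction is not given in the sources used here. A second table was not used, because its 24 value columns carry names that match no sample. Of 46628 probes, 559 control probes were left out. Names came from the probe identifiers or from NCBI gene numbers read in them and matched to RefSeq (4888 symbols among tested probes). Tested were the 20739 probes above the background limit on at least 2 arrays.

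Each probe was fitted with limma 3.58.1 in R 4.3.3 as 6 group means over 12 arrays, which left 6 residual degrees of freedom beside 3.78 of the prior. P-values were adjusted by Benjamini-Hochberg within each comparison over all tested probes and called under 0.05. The fit was tested on simulated data first. "At least" folds set a group at background on both arrays to the limit or its own value, whichever is higher. Described in full are all constant regions and the 6 tested probes of highest mean in each chain. Members called between genotypes or lower in tumours, and the probes of the replicate comparison, are named after their values were seen. The immunoglobulin probes and the gene lists were chosen with earlier results of these data known. Alternatives were cyclic loess, no filter, a filter of 4 arrays, a replicate block, another prior, only the groups compared, genes in place of probes and leaving out each array.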

Additional observations from a re-analysis of the deposited data

Results flagged for a closer look

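For 18 results the tumour minus normal change differed between a Notch genotype and wild type in the test of the difference itself (limma, adjusted p under 0.05). All were smaller rises than in wild type. With Notch inactivated the differences on the log2 scale were -1.73 for IGKV12-41 (adjusted p = 0.0127), -1.68 for IGKV12-46 and for IGKV12-44, -1.37 for IGHV1S30 and -0.70 for IGKV4-86. These 5 compare with 0.511% of all tested probes called lower and 0.299% called higher.

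With Notch activated they were -2.66 for Igkc (SE 0.77, adjusted p = 0.0471) and for IGKC, -2.43 for IGKV3-2, -1.67 for IGKV11-125, -1.44 for IGKV12-41, -1.29 for IGKV12-44, -1.15 for IGKV6-17, -1.13 for IGHV1S31, -1.11 for IGKV12-46, -1.08 for IGHV1S28, -1.04 for IGHV1S53, -1.005 for IGLV3 and -0.75 for IGKV3-1. These 13 compare with 6.19% of all tested probes called lower and 7.53% called higher. IGKV3-1 entered the test only through the wild type tumours, so its call supports no direction.

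Normal tissue was above the limit of 5.79 on all 6 arrays for 4 of the 18, those of Igkc, IGKC and IGKV12-41 in both genotypes. IGKV12-41 read 5.82 to 6.17 there, around the 6.05 to 6.19 of the foreign probes on those arrays, so its normal part is barely measured. In the other 14 some or all normal arrays were at background, so the normal part of the difference is not measured. With Notch inactivated 0 were called without replicate 2 of normal wild type tissue, 3 without replicate 1 of it, and 3 without replicate 2 of the wild type tumours or either Notch-inactivated tumour. With Notch activated 4 were called without replicate 2 of normal wild type tissue, 5 without either Notch-activated normal array, 7 without replicate 2 of the wild type tumours and 22 without replicate 1 of the Notch-activated tumours. The Igkc difference was called in 8 of 20 alternatives, with adjusted p from 0.0136 to 0.146. Without replicate 2 of normal wild type tissue, which read 6.96 beside 8.63, it was -1.83 (adjusted p = 0.129). The 18 were each called in 7 to 20 of at most 20 alternatives. No cause was tested.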

How the results depend on the processing

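Of 200 counts of immunoglobulin probes called under an alternative, 165 stayed within 1.5 times the count reported. Fitting only the groups compared gave 6 calls between Notch-activated and wild type normal tissue, 5 higher and 1 lower, in place of 1 lower. It gave 0 between Notch-inactivated and wild type tumours in place of 6. With no filter the tumour change differed for 7 in place of 13 with Notch activated. Leaving out each array in turn gave 79 to 120 calls for tumour against normal in wild type, 45 to 93 with Notch inactivated, 22 to 89 with Notch activated and 128 to 133 in the average. It gave 0 to 1 and 0 to 2 between normal tissues for Notch inactivated and activated, 1 to 10 and 14 to 34 between tumours, and 0 to 8 and 4 to 22 for the tumour change. An array left alone in its group is assumed to vary like the others. The limit per array, added after seeing the data, changed no count by over 1.5 times. The causes were not tested.

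Replicate numbers did not pair the samples: deviations of arrays with the same number correlated at -0.386 to 0.351 between groups. With the replicate number as a block 114, 79, 75 and 132 probes were called in the 4 tumour comparisons, 0 and 1 between normal tissues, 5 and 20 between tumours and 5 and 10 for the tumour change. Background correction and slide were not run as alternatives, since the table of uncorrected values could not be tied to samples. Of the 301 probes 155 had too little signal over background to be tested.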

Other observations

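Probes for immunoglobulin genes found by NCBI gene number lie outside the member rule. Ighg3 was above background on 1 array only, replicate 1 of Notch-inactivated normal tissue, at 7.15. A probe whose inferred gene number is that of Igkv1-110 read 5.09 to 6.22, while the probe named IGKV1-110 reached 10.69, and the reason for the difference between them was not tested.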
